A study of Gossypium hirsutum with 6 samples.

Results

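In developing fibers of Upland cotton, 190 of 11858 named array entries had transcript ratios at least 2-fold above 5 days post anthesis (dpa) both while the fiber elongated and while its secondary wall was laid down. The entries were chosen by their measured values: the mean log2 ratio to 5 dpa had to reach 1, a 2-fold difference, over 8, 10 and 14 dpa, and again over 21 and 24 dpa. They stand for 189 probe numbers, because probe GA_10dpa_fiberEST_03870 is listed in a pair of entries. A further 84 entries were 2-fold higher in the elongation phase with a secondary wall mean within 2-fold of 5 dpa, and 647 were higher in the secondary wall phase alone. Another 380 named entries hold no value at any stage and could not be placed.

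A cotton fiber is a single cell of the seed coat's outer layer. It first elongates within an extensible primary cell wall (PCW), driven by turgor and by delivery of wall material in vesicles, and later deposits a secondary cell wall (SCW) that is almost pure cellulose. Wall-loosening enzymes and vacuolar water channels are known for their part in elongation, small GTPases direct vesicle traffic, and microtubules guide the deposition of cellulose.

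The fibers came from greenhouse plants of *G. hirsutum* L. cv. TM1 and were harvested at 8, 10, 14, 17, 21 and 24 dpa. Each stage is expressed as a ratio to fibers at 5 dpa of the same line, estimated from 2-colour oligonucleotide arrays that did not all hold 5 dpa. Each stage is given as 1 profile that combines hybridizations of a double loop with dye swaps, so there are no replicates to give an error and no difference was tested. In such bulk RNA a change per cell cannot be told apart from a change in the make-up of the harvested material. No marker of another seed tissue is among the 125 genes for which a description was at hand, so the tissue label could not be checked that way. All 6 profiles share the 5 dpa reference and the linear models, so they are not independent of one another. The 12 scanner files analysed are single-dye images of 7 arrays, and the members' median corrected signal in them lay between 23.2 and 279, against 34.5 to 594 for the other entries.

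At the stages used to choose them, the members' median log2 ratio to 5 dpa was 1.35, 1.25 and 1.77 in the PCW phase (8, 10 and 14 dpa) and 1.82 and 2.37 in the SCW phase (21 and 24 dpa). Medians of the 11668 other entries lay between -0.02 and 0 at these stages. The members at least 2-fold higher numbered 138 at 8 dpa, where 3.16% of all entries passed, and 138 at 10 dpa, where 2.82% passed. They numbered 175 at 14 dpa (3.78% of all entries), 161 at 21 dpa (5.95%) and 176 at 24 dpa (11.2%). These counts follow from the way the members were chosen and are a description only. At all 6 stages at least 2-fold higher were 67 members, which is every such entry among all (0.565%), since any entry of that kind meets the rule.

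The 17 dpa profile, at the transition from PCW to SCW synthesis, took no part in the choice. There, 159 of 190 members (83.7%) were at least 2-fold above 5 dpa, against 5.89% of all entries, and the median was 1.75. The ratios at 17 dpa ran from -1.31 to 9.82, and 5 members lay below 5 dpa. The 17 dpa value lay between a member's PCW and SCW means in 71 members, above both in 57 and below both in 62. Among the 84 entries higher in elongation alone, 51 were 2-fold higher at 17 dpa with a median of 1.14, and among the 647 higher in the secondary wall phase alone, 236 were, with a median of 0.74. The 17 dpa values share the 5 dpa reference and the fit with the stages that chose the members, so they are not independent of them.

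**Figure D1:**
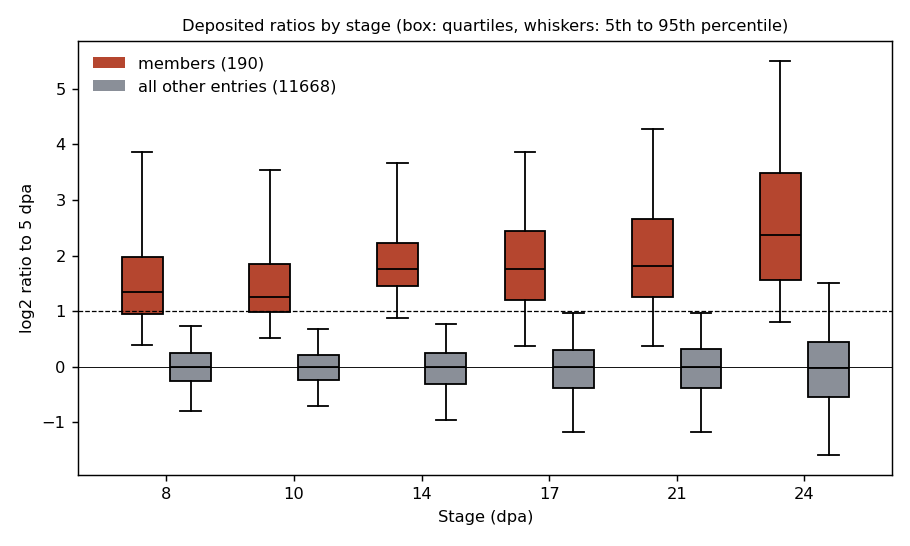
Deposited log2 ratios to 5 dpa (vertical axis) at 6 stages in dpa (horizontal axis) for the 190 members and the 11668 other entries, with boxes for the quartiles, whiskers for the 5th to 95th percentile and a dashed line at 2-fold. The members' median runs from 1.35 at 8 dpa to 2.37 at 24 dpa, with 1.75 at 17 dpa, the stage that took no part in the choice.

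Within the group, most members had similar mean ratios in both phases, which does not make their single stages level. An extreme case is GA_10dpa_fiberEST_10424, with 0.42, 1.76, 1.11, 9.31, -2.33 and 4.36 from 8 to 24 dpa. In 130 members (68.4%) the SCW mean lay within 2-fold of the PCW mean, with median ratios of 1.40, 1.28, 1.75, 1.62, 1.53 and 1.95 at 8, 10, 14, 17, 21 and 24 dpa. In 55 members (28.9%) the SCW mean was at least 2-fold above the PCW mean, and their medians were 1.17, 1.17, 1.80, 2.13, 2.78 and 3.31 over the same stages. In the remaining 5 members the PCW mean was at least 2-fold above the SCW mean, with medians of 5.50, 3.54, 3.59, 1.92, 1.52 and 2.94. None of these 5 was above the buffer spots in at least 6 of the 12 scanner files, against 47 of the 130 and 25 of the 55. The shares of all entries with such differences between the phases were not computed.

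The highest ratio fell at 8 dpa in 16 members, at 10 dpa in 12, at 14 dpa in 19, at 17 dpa in 24, at 21 dpa in 37 and at 24 dpa in 82. The lowest fell at 8 dpa in 57 members and at 10 dpa in 57. Between neighbouring stages the largest median step was at 14 dpa over 10 dpa, with 0.51 in members and -0.02 in the other entries. At 14 dpa 148 of 190 members (77.9%) were higher than at 10 dpa, against 47.1% of the other entries. Both of these stages took part in the choice of the members. The medians of the other steps were -0.08 (10 over 8 dpa), 0.05 (17 over 14 dpa), 0.20 (21 over 17 dpa) and 0.26 (24 over 21 dpa). A profile that never fell between neighbouring stages was found in 7 members. In 169 members all 6 ratios were above 0, and 21 had at least 1 stage below 5 dpa. These counts follow largely from the choice, and no share over all entries was computed for them.

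The last step differed between bright and dim members. At 24 dpa 119 of 190 members (62.6%) were higher than at 21 dpa, against 45.1% of all entries, and 64 were at least 2-fold higher, against 7.76%. Among the 72 members above the buffer signal in at least 6 of 12 files, 37 were higher at 24 dpa (51.4%), 4 of them at least 2-fold, with a median difference of 0.01. Among the 118 members above it in fewer files, 82 were higher (69.5%), 60 of them at least 2-fold, with a median difference of 1.00. Both stages entered the choice of the members. The shares over all entries were not split by signal, so whether dim entries in general differed from bright ones at this step was not tested.

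**Figure D2:**
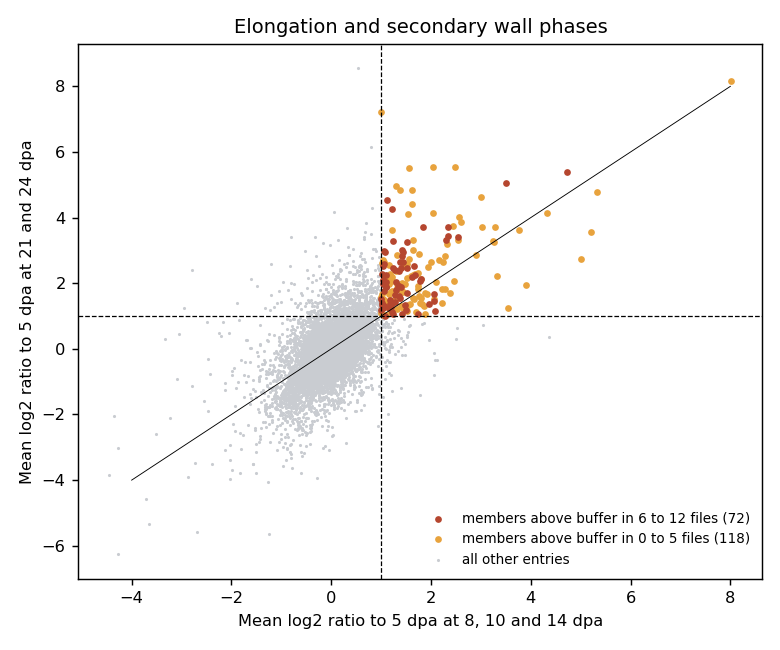
Mean log2 ratio to 5 dpa at 21 and 24 dpa (vertical axis) against the mean at 8, 10 and 14 dpa (horizontal axis) for every entry, with dashed lines at the 2-fold thresholds and a solid line where both means are equal. The members fill the upper right field, and 118 of 190 were above the buffer spots in fewer than 6 of 12 scanner files.

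Signal over the buffer spots took no part in the rule, but it is not independent of the choice. Some of the scanner files image the reference stage, and members were chosen for ratios above that stage. How far this affected the counts of files was not tested. By a threshold on the buffer spots' median, fewer members passed than other entries, a difference that a stricter threshold did not show. Buffer spots hold no probe. A probe was counted as above them in a file when its background-corrected signal passed their median plus 3 scaled median absolute deviations. Of the 190 members, 72 (37.9%) were above the buffer signal in at least 6 of 12 files, against 83.2% of the other entries. The share was 59.5% among entries higher in elongation alone and 51.6% among those higher in the secondary wall phase alone. Members passed in a median of 3 files and the other entries in a median of 11.

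In no file at all were 46 members (24.2%) above the buffer, against 2.33% of the other entries, and 32 members (16.8%) were above it in every file, against 35.7%. Seen from the whole array, members made up 14.5 of every 100 entries that passed in no file and 0.763 of every 100 that passed in all 12. By file, 21.1% to 52.6% of the members were above the buffer, against 47.1% to 93.5% of the other entries. The study's methods filter on the buffer spots' mean plus a multiple of their SD. With the mean plus 3 SD as the threshold, few probes of either kind passed in at least 6 files, 5.79% of members and 7.09% of other entries, so most of the difference between them was lost.

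The values behind the choice are given here by signal. In the 32 members above the buffer in every file, the median ratios were 1.19, 1.06, 1.78, 1.89, 2.10 and 2.10 at 8, 10, 14, 17, 21 and 24 dpa, and all 32 were at least 2-fold higher at 14, 17, 21 and 24 dpa. In the 46 members above it in no file, the medians were 1.65, 1.35, 1.79, 1.62, 1.45 and 2.97, and 32 were 2-fold higher at 17 dpa. The spread was wider in dim members. At 24 dpa the 5th to 95th percentile ran from 0.77 to 6.29 in members above the buffer in fewer than 6 files and from 0.85 to 4.64 in the others.

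**Figure D3:**
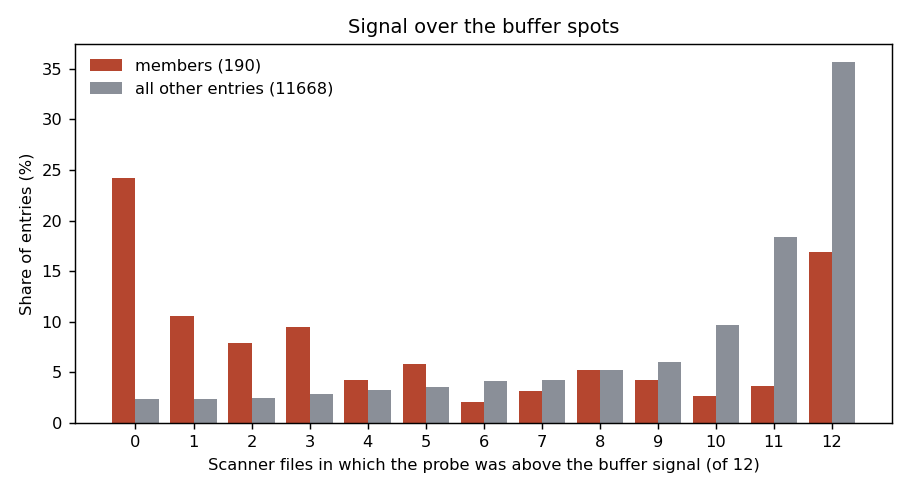
Share of entries in percent (vertical axis) by the number of scanner files, of 12, in which the probe was above the buffer signal (horizontal axis), for the 190 members and the 11668 other entries. The members' largest bar is at 0 files (24.2%) and that of the other entries at 12 files (35.7%).

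The members did not share a place on the array. All 48 print blocks held at least 1 member, with a median of 4 and at most 10 among the 258 entries of a block, where 1.60 of every 100 entries were members over the whole array. Of the members, 138 (72.6%) carry the name of a contig of expressed sequences and 51 (26.8%) that of a single expressed sequence tag, against 79.3% and 20.5% of the other entries.

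Of the 189 probe numbers, 21 have a description in Additional file 1, which lists 125 genes. The study chose these as regulated in both this series and its Pima (*G. barbadense*) series. They also had to differ strongly between the species at 17 and 24 dpa. They are therefore not a random draw of the members, and their 17 and 24 dpa values took part in their choice. Through a pair of entries for 1 probe they make up 22 entries. At 17 dpa, 22 of the 22 were at least 2-fold higher, against 83.7% of all members and 5.89% of all entries. An SCW mean at least 2-fold above the PCW mean was found in 13, against 28.9% of all members. The SCW mean includes 24 dpa, and the share over all entries was not computed. Above the buffer in at least 6 files were 16, against 37.9% of all members and 83.2% of the other entries. The function is given as unknown for 8 of the 22 entries, and 168 members have no description.

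Among wall-loosening and remodelling genes, 1 of 4 in that file was a member. Xyloglucan endotransglycosylase (GA_10dpa_fiberEST_12158), which cuts and rejoins the xyloglucan chains that tether cellulose in the primary wall, had log2 ratios to 5 dpa of 1.22, 1.08, 1.78, 1.62, 1.80 and 2.06 from 8 to 24 dpa, in the order of the 6 stages. It was at least 2-fold higher at every stage and above the buffer in 12 of 12 files. Expansin 1 (GA_10dpa_fiberEST_00974), which loosens the wall, missed the group with a PCW mean of 0.72 and an SCW mean of 1.13. Of the beta-galactosidases, which act on wall polysaccharides, one (GA_10dpa_fiberEST_03757) had a PCW mean of 1.28 and an SCW mean of -0.15, and the other (GA_10dpa_fiberEST_04269) lay below 5 dpa in both phases, at -1.16 and -0.50. Of 4 genes of cellulose synthesis and sucrose supply, 0 were members. Their PCW means ran from -0.89 to 0.33 and their SCW means from -2.77 to 0.58, with both sucrose synthase probes lowest in both phases.

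Of 3 water channels, 1 was a member. The tonoplast channel described as ZmTIP4-4 (GA_10dpa_fiberEST_06183), which passes water across the vacuolar membrane, had ratios of 2.07, 1.86, 2.25, 2.13, 1.68 and 1.24 from 8 to 24 dpa. Its level was highest at 14 dpa and lowest at 24 dpa, and its SCW mean of 1.46 lay below its PCW mean of 2.06. It was above the buffer in 12 of 12 files. The other channels of that list were aquaporin PIP2-2 (GA_10dpa_fiberEST_12638), with a PCW mean of 0.94 and an SCW mean of 0.55, and bobTIP26-1 (GA_10dpa_fiberEST_10986), with -0.11 and -0.37.

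Of 3 cytoskeletal genes, 1 was a member. Beta-tubulin (GA_10dpa_fiberEST_07246), a subunit of the microtubules that guide cellulose deposition, had ratios of 1.00, 0.72, 1.30, 1.13, 1.34 and 1.01 from 8 to 24 dpa. It was the flattest of the described members, and its PCW mean of 1.005 placed it just inside the threshold. Tubulin beta-1 (GA_10dpa_fiberEST_11289) ran close below it, with a PCW mean of 0.61 and an SCW mean of 0.94, and was not a member. Actin (GA_10dpa_fiberEST_04501), the subunit of the other main filament, had means of 0.21 and -0.70.

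Of 5 small GTPase genes and regulators, 1 was a member. Rab11C (GA_10dpa_fiberEST_11669), of the Rab family that directs vesicles to their target membranes, had ratios of 1.40, 1.16, 1.62, 1.76, 2.15 and 2.75 from 8 to 24 dpa and was above the buffer in 11 of 12 files. It was highest at 24 dpa and lowest at 10 dpa. A second Rab11C probe (GA_10dpa_fiberEST_03038) had a PCW mean of 0.84 and an SCW mean of 1.37 and was not a member. The other 3 genes of the list had means of 0.31 and 3.69 (GTP-binding protein GA_10dpa_fiberEST_07089), -0.30 and -0.75 (GTP-binding protein GA_10dpa_fiberEST_11797) and 0.71 and 0.87 (Ran-specific GTPase-activating protein GA_10dpa_fiberEST_05078) in the PCW and SCW phases.

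Of 3 redox and iron genes, 2 were members. Ferritin 3 (GA_10dpa_fiberEST_10012), which stores iron, had ratios of 1.78, 2.28, 2.98, 3.01, 3.66 and 3.22 from 8 to 24 dpa, at least 2-fold higher at every stage, and was above the buffer in 9 of 12 files. The probable glutathione peroxidase (GA_10dpa_fiberEST_05938), of a family that reduces peroxides, had ratios of 1.81, 1.38, 2.07, 1.62, 2.18 and 3.58. It was also 2-fold higher at every stage, but its probe was above the buffer in 0 of 12 files. The non-member was glutathione S-transferase (GA_10dpa_fiberEST_11644), a detoxification enzyme, which lay far below 5 dpa with a PCW mean of -2.02 and an SCW mean of -3.96.

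Among 4 genes of proteolysis, 1 was a member. Protease P27 (GA_10dpa_fiberEST_06424) had ratios of 0.63, 1.65, 2.06, 2.65, 3.05 and 2.87 from 8 to 24 dpa and was above the buffer in 12 of 12 files. It was under 2-fold at 8 dpa alone. A second probe with that description (GA_10dpa_fiberEST_06430) had an SCW mean of 4.28 and a PCW mean of 0.82, which left it outside the group. The others were a putative serine carboxypeptidase II (GA_10dpa_fiberEST_12737), with a PCW mean of -0.11 and an SCW mean of 0.67, and SBT2 protein (GA_10dpa_fiberEST_10417), below 5 dpa in both phases at -0.61 and -2.21.

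The probe listed in a pair of entries (GA_10dpa_fiberEST_03870) is described by its Arabidopsis match as glyceraldehyde-3-phosphate dehydrogenase C subunit, a glycolytic enzyme. The entry without a contig name had ratios of 1.22, 1.03, 1.80, 1.75, 2.24 and 2.48 from 8 to 24 dpa. The entry with its contig name had 1.28, 0.78, 1.46, 1.39, 1.61 and 1.40. Both were above the buffer in 12 of 12 files, and they lay closest at 8 dpa and farthest apart at 24 dpa, on either side of a 2-fold difference between the phases.

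A protein of the C2H2 zinc finger family (GA_10dpa_fiberEST_01246), a class of DNA-binding proteins, was the member among 4 transcription factor and DNA-binding genes. Its ratios were 1.30, 1.41, 1.74, 2.13, 1.53 and 1.16 from 8 to 24 dpa, highest at 17 dpa. Among 4 genes of membrane transport and mitochondria, a putative mitochondrial protein (GA_10dpa_fiberEST_09957) was the member, with ratios of 1.08, 0.83, 1.78, 1.93, 2.59 and 2.36. Both were above the buffer in most files, 11 and 12 of 12. The other genes of these lists had PCW means from -0.55 to 0.94 and SCW means from -1.29 to 3.83, and the highest SCW mean was that of cytochrome c oxidase subunit II (GA_10dpa_fiberEST_02212). Of 5 lipid genes, 3 calcium signalling genes and 4 ribosomal and translation genes, 0 were members.

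The described member with the widest range over the stages among those of known name was a Yippee-like protein (GA_10dpa_fiberEST_00794), with ratios of 0.44, 0.87, 2.82, 3.63, 4.76 and 4.92 from 8 to 24 dpa. It was under 2-fold at 8 and 10 dpa and above the buffer in 5 of 12 files. The probe described as thymidylate kinase (GA_10dpa_fiberEST_11110) had ratios of 0.77, 0.79, 1.59, 1.56, 1.36 and 1.25. Its Arabidopsis description names a different kind of protein, similar to a cotton fiber expressed protein, so its name is uncertain. A probe matched only to an Arabidopsis genomic clone, MPF21 (GA_10dpa_fiberEST_00099), had ratios of 1.99, 0.63, 0.88, 1.20, -0.18 and 4.14. It met the SCW threshold through 24 dpa alone and was above the buffer in 0 of 12 files.

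**Figure D4:**
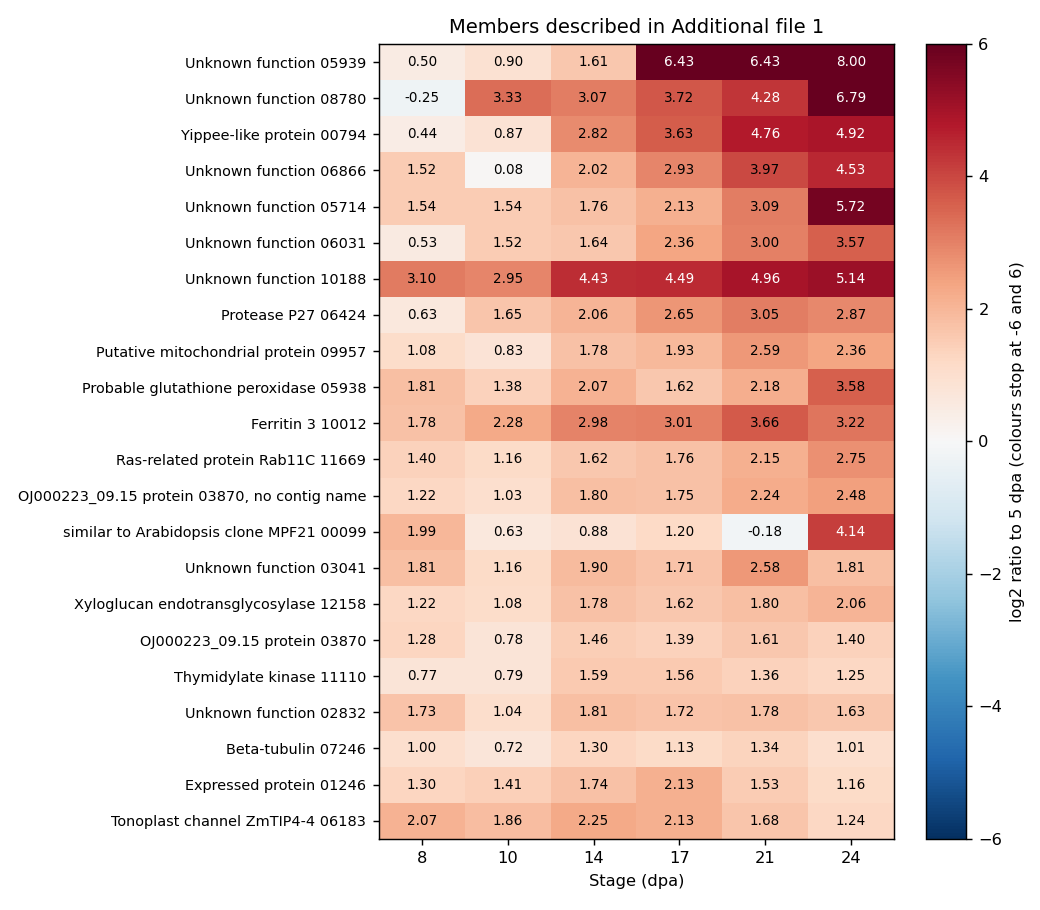
Log2 ratios to 5 dpa of the 22 described entries (rows, with the last 5 digits of the probe number) at 6 stages in dpa (columns), ordered from the largest excess of the SCW mean over the PCW mean at the top. Red is above 5 dpa, blue below it, and the values range from -0.25 to 8.00.

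The 8 members of unknown function included the extremes of the described group. The probe GA_10dpa_fiberEST_05939, whose Arabidopsis match is of the inositol 1,3,4-trisphosphate 5/6-kinase family, had ratios of 0.50, 0.90, 1.61, 6.43, 6.43 and 8.00 from 8 to 24 dpa. Its SCW mean exceeded its PCW mean by 6.21, the largest excess of all members, its PCW mean of 1.004 lay just inside the threshold, and it was above the buffer in 0 of 12 files. GA_10dpa_fiberEST_08780 had -0.25, 3.33, 3.07, 3.72, 4.28 and 6.79, with 3 of 12 files above the buffer. GA_10dpa_fiberEST_05714 had 1.54, 1.54, 1.76, 2.13, 3.09 and 5.72, with 0 of 12 files.

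Other members of unknown function were well above the buffer. GA_10dpa_fiberEST_10188 had ratios of 3.10, 2.95, 4.43, 4.49, 4.96 and 5.14 from 8 to 24 dpa, with 12 of 12 files above the buffer, and had the highest PCW mean of the described members (3.50). GA_10dpa_fiberEST_06031 had 0.53, 1.52, 1.64, 2.36, 3.00 and 3.57, also with 12 of 12 files. It rose at every step between the stages. GA_10dpa_fiberEST_02832 was level, with 1.73, 1.04, 1.81, 1.72, 1.78 and 1.63 and 11 of 12 files.

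GA_10dpa_fiberEST_03041, whose Arabidopsis match is of the male sterility MS5 family, had ratios of 1.81, 1.16, 1.90, 1.71, 2.58 and 1.81, with 9 of 12 files. GA_10dpa_fiberEST_06866 had 1.52, 0.08, 2.02, 2.93, 3.97 and 4.53, with 6 of 12 files, and was near its 5 dpa level at 10 dpa. Of the members with no description and above the buffer in every file, the pair with the highest lowest ratio was GA_10dpa_fiberEST_01589, with 2.07, 1.82, 2.99, 2.86, 3.11 and 3.53, and GA_10dpa_fiberEST_12195, with 1.55, 1.57, 1.91, 1.89, 2.23 and 2.26. Both were at least 2-fold higher than 5 dpa at every stage.

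Single arrays show how far the members moved together before the authors' fit combined the hybridizations. Of the 5 arrays with both dyes among the files, 4 pair 8, 10, 21 or 24 dpa with 5 dpa. The labels do not settle which dye holds which stage, so a ratio of the dyes has a size and a side but no direction. The files are among those that could have entered the deposited values, so the counts below are a description and not independent of the choice. On each array the side was taken as the one that held most members, so a majority of members there was fixed in advance.

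On the array with 8 and 5 dpa, 127 of 150 measured members lay on 1 side, against 51.9% of all entries on that side. On the array with 10 and 5 dpa it was 153 of 177 (49.3% of all entries), with 21 and 5 dpa 129 of 156 (51.5%) and with 24 and 5 dpa 159 of 187 (48.2%). Of the 125 members measured on all 4 arrays, 73 lay on the majority side on every one, against 11.4% of all entries, 37 on 3 arrays and 15 on 2. On the array with 17 and 14 dpa, which holds no 5 dpa sample, 75 of 140 members lay on the more frequent side, close to the 51.4% of all entries.

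The side on 2 of the 5 arrays depended on the normalization. With centring on the median in place of loess, 25.3% of members stayed on that side on the array with 8 and 5 dpa, against 49.2% of other entries. On the array with 17 and 14 dpa it was 40.0% against 48.7%. On the array with 8 and 5 dpa, with plain subtraction, with no subtraction or with members above the buffer in both dyes the share was 79.3% to 94.9%. That of the other entries was 49.8% to 51.0%. On the other 3 arrays with 5 dpa the members' share was at least 71.8% under each of these settings, and that of the other entries 48.4% to 63.5%. The 63.5% was on the array with 24 and 5 dpa among entries above the buffer in both dyes, where 100% of the 59 members lay on that side.

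The size of the array ratios also moved with the background correction. With limma's normexp, the members' median log2 ratio toward the majority side was 0.09, 0.03, 0.25 and 0.41 on the arrays with 8, 10, 21 and 24 dpa. The median gap between duplicate spots, the only error measurable within an array, was 0.06, 0.03, 0.13 and 0.17. With plain subtraction the medians were 0.67, 1.22, 1.76 and 2.64, with gaps of 0.31, 0.28, 0.42 and 0.47, and the deposited medians of those members were 1.21, 1.17, 1.68 and 2.29. Members above the buffer in both dyes had medians of 0.44, 0.39, 1.57 and 1.23 with normexp, with gaps of 0.08, 0.04, 0.16 and 0.18.

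Single genes differed in how closely their duplicate spots lay and in how far the background correction moved their ratios. Xyloglucan endotransglycosylase (GA_10dpa_fiberEST_12158) was on the members' side on all 4 arrays with 5 dpa, by 0.63, 1.65, 1.01 and 1.20 with 8, 10, 21 and 24 dpa, with gaps of 0.04, 0.11, 1.16 and 0.20 between its spots, so the 21 dpa value did not exceed its gap. With plain subtraction it was there by 1.06, 1.65, 2.01 and 1.54. The tonoplast channel (GA_10dpa_fiberEST_06183) was there by 1.69, 2.74, 1.55 and 0.44, with gaps of 0.16, 0.06, 0.21 and 0.13, and by 2.05, 2.73, 1.67 and 0.61 with plain subtraction. Its ratio was largest with 10 dpa and smallest with 24 dpa under both corrections. Ferritin 3 (GA_10dpa_fiberEST_10012) was there by 0.33, 0.52, 2.40 and 0.53, with gaps of 0.03, 0.03, 0.18 and 0.01, and by 1.35, 3.38, 3.68 and 2.45 with plain subtraction. Only with normexp did its 21 dpa ratio stand far above the others.

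Protease P27 and Rab11C had larger ratios on the 21 and 24 dpa arrays than on the 8 and 10 dpa arrays under both corrections. Protease P27 (GA_10dpa_fiberEST_06424) was on the members' side by 0.37, 0.52, 4.13 and 3.29, with gaps of 0.01, 0.02, 0.10 and 0.01, and by 0.37, 0.50, 4.24 and 3.38 with plain subtraction. Rab11C (GA_10dpa_fiberEST_11669) was there by 0.24, 0.39, 1.96 and 2.42, with gaps of 0.08, 0.05, 0.48 and 1.06, and by 1.24, 1.12, 2.53 and 2.99 with plain subtraction. Beta-tubulin (GA_10dpa_fiberEST_07246) was there by 0.69, 0.96, 1.11 and 1.08, with gaps of 0.24, 0.16, 0.12 and 0.13, and by 0.71, 1.08, 1.22 and 1.35 with plain subtraction.

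Dim members gave less regular array values. The glutathione peroxidase probe (GA_10dpa_fiberEST_05938), at the buffer level, had -0.01, 0.02, 0.00 and 0.62 with normexp. Of its arrays with 5 dpa, only those with 8 and 10 dpa had both spots, each with a gap of 0.01. With plain subtraction it had -0.08, 3.65 and 5.14 on the arrays with 8, 10 and 24 dpa and no value with 21 dpa. The probe of unknown function GA_10dpa_fiberEST_05714, with a deposited ratio of 5.72 at 24 dpa, had -0.18 on the array with 24 and 5 dpa. It had 0.04 on that with 21 and 5 dpa, each from a single spot with normexp. Plain subtraction left it no value on these arrays. A wide gap was not confined to dim members. GA_10dpa_fiberEST_06866, above the buffer in 6 of 12 files, had 2.25 on the array with 21 and 5 dpa, with a gap of 3.27 between its spots. With plain subtraction it had 5.42 there.

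**Figure D5:**
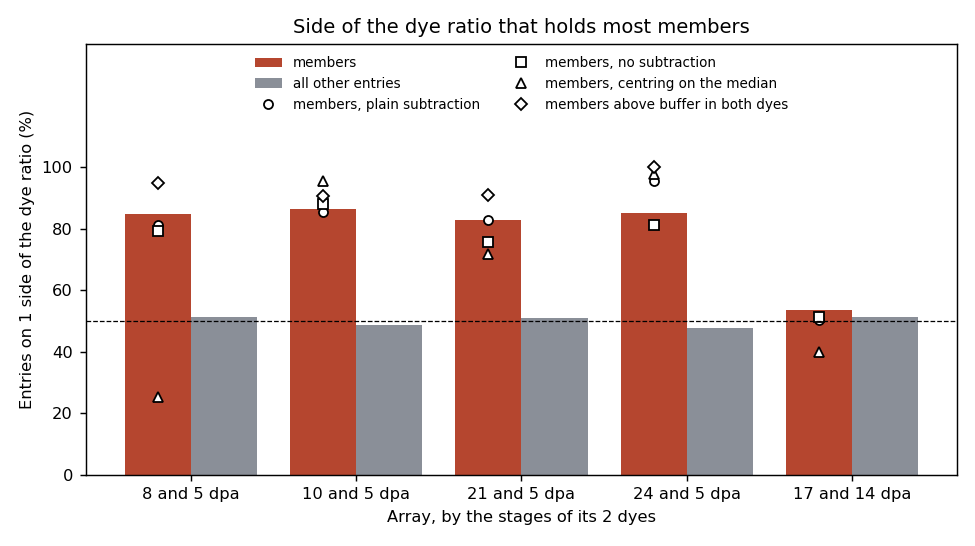
Share of entries in percent (vertical axis) on the side of the dye ratio that holds most members, on 5 arrays named by their stages (horizontal axis), for members and for all other entries, with open symbols for the members under other settings. The members reach 82.7% to 86.4% on the 4 arrays with 5 dpa and 53.6% on the array with 17 and 14 dpa, and the triangle at 25.3% marks centring on the median.

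Near the threshold the group has no gap. The 5 members closest to it had a lower phase mean of 1.000 to 1.007, and the 5 entries closest outside had 0.991 to 0.998. Within 0.1 of the threshold were 39 members on the inside and 46 entries on the outside.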

How the data were processed

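The authors deposited 1 profile per stage as log2 ratios to 5 dpa, coefficients of LIMMA linear models over a double loop, made after they had flagged poor spots by hand, subtracted the background, dropped spots close to the buffer and dye swaps that diverged, and applied lowess. They were used as deposited. The 12 scanner files were deposited with the intensity of each spot and its background, not normalized. For the signal over the buffer, each probe's unflagged spots were averaged after local background had been taken off. Array ratios were made with limma 3.58.1 in R 4.3.3 (normexp, offset 50, and loess), after a check on simulated data. Python 3 scripts made the counts. Members and lists were chosen with earlier results of these data known. The named genes are all members described in Additional file 1, by its descriptions alone, and at most 2 undescribed members; non-members of the functional lists are given by phase means or their range. Nothing was tested, and no p-value was computed. No probe sequence or gene position was used here. The alternatives were other folds, centring, stage sets, buffer thresholds, background corrections and normalizations.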

Additional observations from a re-analysis of the deposited data

How the results depend on the processing

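The count of 190 members was 557 at 1.5-fold and 60 at 3-fold, 73 when every stage used by the rule had to pass, 72 with entries above the buffer in at least 6 files and 32 with those above it in all 12. The other alternatives for this count (centred profiles, medians, leaving out each stage, and adding 17 dpa to either phase) gave between 157 and 225. The share of members above the buffer in at least 6 files, 37.9%, was 5.79% with the buffer spots' mean plus 3 SD, against 7.09% of other entries. It was 31.1% against 69.8% with no background subtraction, and 37.4% against 82.4% with flagged spots kept. On the array with 8 and 5 dpa, the members' side held 25.3% of them with median centring, against 49.2% of other entries. On the array with 17 and 14 dpa it held 40.0%, against 48.7%. The causes were not tested. The share 2-fold higher at 17 dpa was 83.7% to 95.8% (93.2% at 1.5-fold and 61.6% at 3-fold), and the share higher at 24 than at 21 dpa between 51.4% and 63.2%. By the threshold on the buffer median, 118 of 190 members passed in fewer than 6 files. The precision of their ratios was not measured. No paired analysis was possible because each stage is 1 profile.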
